A study of Mus musculus with 27 samples.

Results

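The interleukin-1 genes described here are 3 ligands (Il1a, Il1b and Il18), 3 inhibitors (Il1rn, Il18bp and Il1r2) and 1 receptor subunit (Il1rap). They were picked by symbol, as the array's own annotation spells it, and make up 7 of the 27528 genes and 9 of the 36781 named probes on the array. Il1rap has 3 probes and each other gene has 1. Bone marrow-derived macrophages (BMDMs) of female C57BL/6 mice aged 6 to 8 weeks, grown out over 7 days in medium conditioned by L929 cells, which supplies the growth factor for macrophages, were left untreated (naïve), given a ligand for 4 h (acute), or kept with it for 24 h, rinsed, left for 1 h without it and given it again for 4 h (re-stimulated). The ligands were LPS at 100 ng/ml, CpG DNA at 100 µM by the sample labels (the published methods give a lower concentration), Pam3CSK4, also at 100 ng/ml, and Poly(I:C), used at 10 µg/ml. They engage the Toll-like receptors TLR4, TLR9, TLR2 (paired with TLR1) and TLR3, in that order. No group was kept with a ligand for 24 h and taken without the second dose. A change on re-stimulation below is the difference between re-stimulated and acute cells. In it, and in differences of re-stimulated from naïve cells, effects left from the first 24 h and those of the second dose cannot be told apart.

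RNA of 27 cultures in 9 groups of 3 was hybridised to one-colour arrays, and the authors deposited log2 values for 25 of them. The third LPS re-stimulated and the second Pam3CSK4 acute array were left out by the authors for low quality, so those groups have 2 arrays. The series describes the replicates as independent experiments. The published methods describe them both as from different mice and as from separately made pools of mice. By either account a p-value here measures the spread between cultures of different mice or of different pools. The number of arrays, 2 or 3 per group, limits the precision of every value.

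Interleukin-1α and interleukin-1β, encoded by Il1a and Il1b, bind the same signalling receptor, IL1R1, which needs the accessory subunit encoded by Il1rap. Il1rn encodes the receptor antagonist, which occupies that receptor without signalling, and Il1r2 encodes a decoy receptor that binds the ligands and lacks the signalling domain. Interleukin-18 is a further ligand of the family, which promotes interferon-γ production, and Il18bp encodes the secreted protein that neutralises it. Interleukin-1β and interleukin-18 are made as inactive precursors and cut by caspase-1 in inflammasomes, so an mRNA level is not a level of active cytokine.

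The starts of Il1a and Il1b are shown because these ligand genes were called against naïve in all 4 re-stimulated groups. The 250 bases before each start site are from RefSeq (GRCm38.p6), in the direction of the gene, with capitals at the matches to a C/EBP motif (TTNNGNAA), a TATA box (TATAAA) and an AP-1 motif (TGANTCA). Il1a lies at chr2:129309973-129310222 and Il1b at chr2:129371140-129371389, both on the minus strand.
Il1a: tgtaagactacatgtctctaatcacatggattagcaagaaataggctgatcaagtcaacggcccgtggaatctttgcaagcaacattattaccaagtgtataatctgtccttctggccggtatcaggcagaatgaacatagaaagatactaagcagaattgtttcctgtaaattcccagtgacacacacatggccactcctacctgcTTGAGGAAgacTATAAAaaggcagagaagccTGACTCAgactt
Il1b: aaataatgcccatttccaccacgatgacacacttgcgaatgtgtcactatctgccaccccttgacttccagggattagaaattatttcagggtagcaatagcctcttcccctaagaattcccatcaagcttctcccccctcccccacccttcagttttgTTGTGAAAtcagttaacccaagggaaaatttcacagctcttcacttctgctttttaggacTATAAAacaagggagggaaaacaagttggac
In Il1a the C/EBP match began at base -43, the TATA box at -32 and the AP-1 match at -12, counted from the start site. In Il1b the C/EBP match began at -91 and the TATA box at -31. All 7 genes had a sequence in the table, 9 promoters in all because Il1rn has 3, and 7 motifs were searched on both strands. A TATA box was found in promoters of 3 members (Il1a, Il1b and Il18, the last on the opposite strand) and in 12.4% of the 32851 promoters of the table. AP-1 matches were found for 2 members (Il1a and Il1rn) against 6.75% of all promoters, and C/EBP matches for 4 (Il1a, Il1b, Il1rn and Il18bp) against 36.8%. The gamma-activated sequence TTCNNNGAA was found for 1 member, Il1r2, against 7.02%. The core of the interferon-stimulated response element (TTTC, any 2 bases, TTTC), the cyclic AMP response element TGACGTCA and the kappa B consensus were found in 0 of these windows, against 2.98%, 1.55% and 3.9% of all promoters.

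Values are log2 intensities on the deposited scale, and a difference of 1 is a 2-fold change. Levels of different genes come from different probes and are not set against each other. A probe was tested in a comparison if 2 or more arrays of either group had it marked well above background by the scanner software, and was called if its adjusted p (limma, over all probes tested) was under 0.05 and its change at least 1.5-fold. The mark of well above background was set on 74.6% of probes on the third naïve array and on 42.1 to 54.3% on the other arrays used. Detection on that naïve array is thus not directly comparable with that on the others. All arrays other than those of acute LPS shared 3 slides and 1 scan day, with each replicate number on 1 slide. Those of acute LPS lay on 3 further slides that were scanned on 2 different days, and their files name another version of the array design, so slide, scan day, design version and acute LPS cannot be told apart. All 7 macrophage markers checked, Adgre1, Csf1r and Cd68 among them, were well above background on 25 of 25 arrays.

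Of the 4 granulocyte markers, Ly6g, Mpo and Prtn3 split the arrays by slide and Elane did not. Ly6g, a surface protein of neutrophils, was at 8.74 to 12.78 on the 15 arrays of the first and the second shared slide, at 1.82 to 6.42 on the 7 arrays of the third, and at 2.96 to 3.78 on the 3 acute LPS arrays, where it was not above background. Mpo was above background on 14 of 15, 0 of 7 and 2 of 3 arrays of these sets and Prtn3 on 13 of 15, 1 of 7 and 0 of 3, while Elane was above background on all of them. Of the fibroblast markers, Col1a1 was above background on 0 of 15, 4 of 7 and 0 of 3 arrays. Col1a2 was so on 13 of 15, 7 of 7 and 3 of 3, and Pdgfra on none. The summed level of these 4 markers spanned 11.84 to 12.81 in naïve BMDMs, 11.51 to 12.13 after acute LPS and 12.7 to 13.76 after re-stimulation with LPS. Zbtb46, a dendritic cell marker, was at 9.57 to 10.67 on the acute LPS arrays and at 3.11 to 8.23 on the others. The 3 dendritic cell markers summed to 9.6 to 10.69 after acute LPS, 6.73 to 6.87 after re-stimulation with LPS and 4.53 to 5.75 in naïve BMDMs. After acute LPS this sum was nearly that of Zbtb46 alone. Flt3 was not higher there, at 3.36 to 4.03 (above background on 1 of 3 arrays). It was at 3.67 to 6.02 on the first and the second shared slide (8 of 15) and at 2.81 to 4.16 on the third (1 of 7). Xcr1 was not above background on any array. In a mixed culture, fewer cells of a type and less RNA per cell cannot be told apart. The part of these cells in the results below was not tested. Each comparison was therefore also made without the 7 arrays of the third slide, an alternative chosen after seeing the data.

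**Figure D1:**
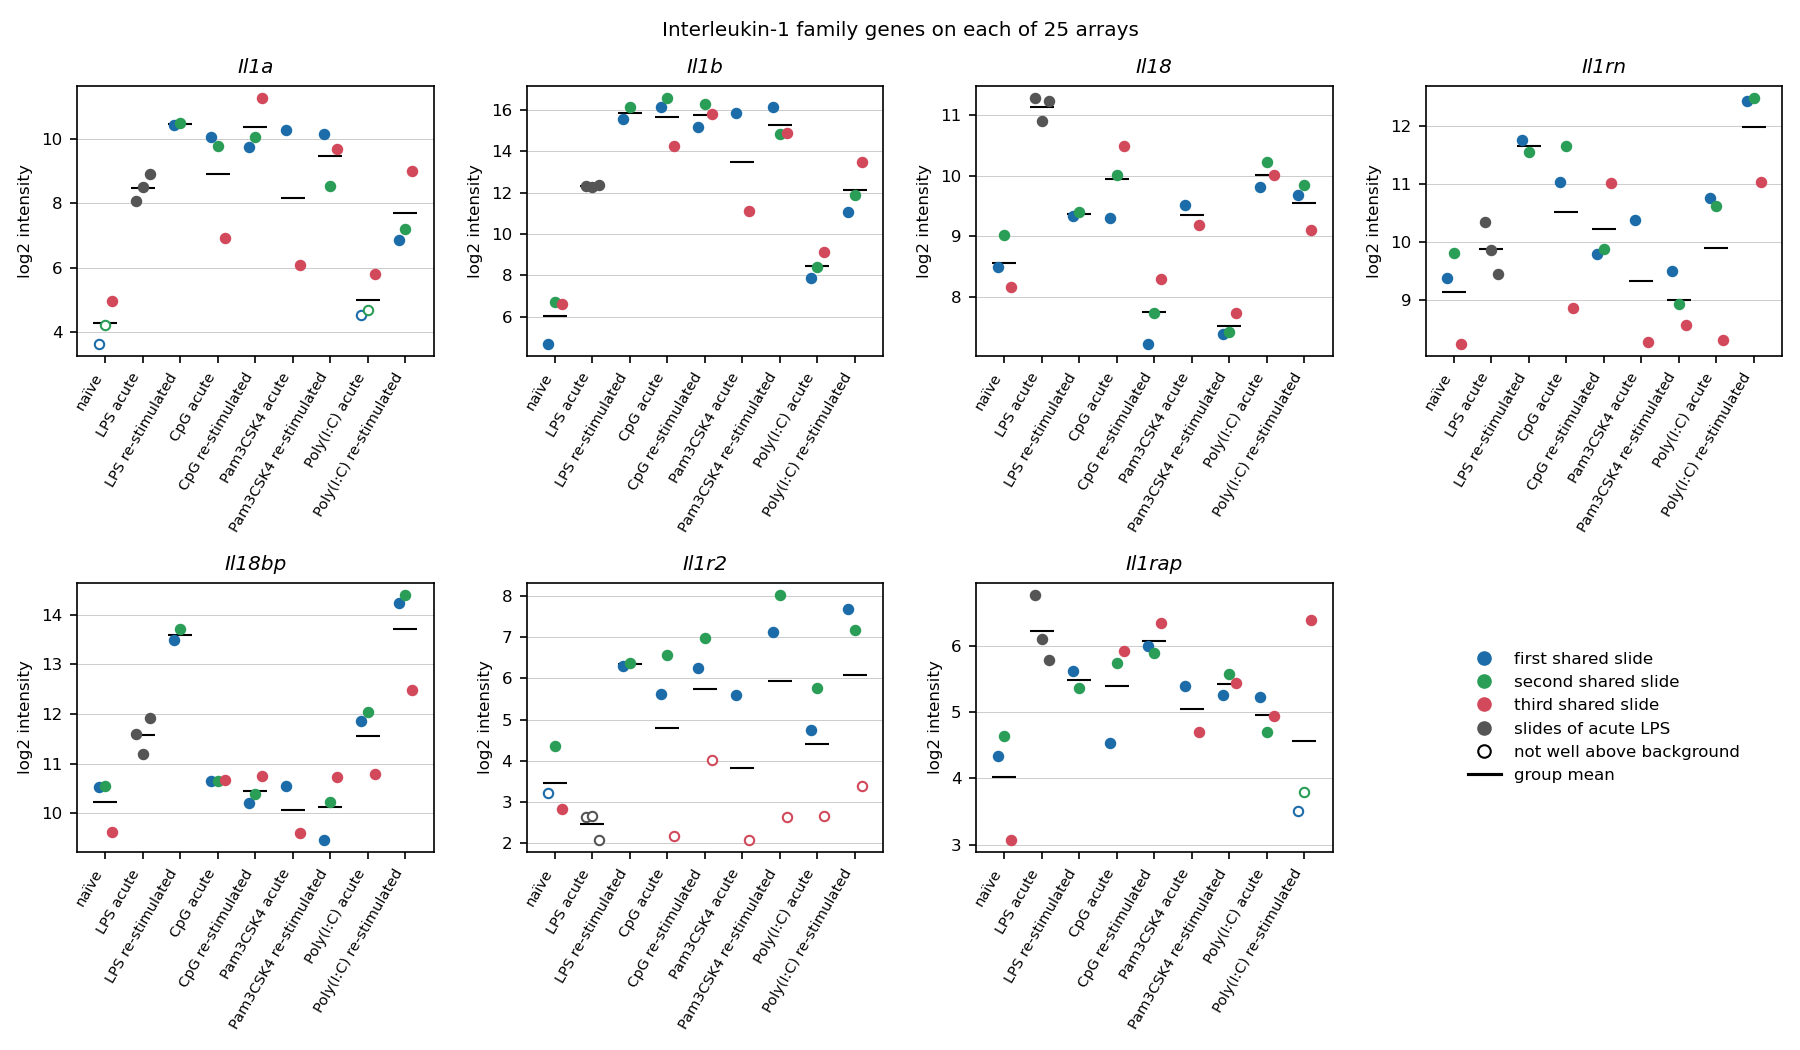
Log2 intensity (y axis) of each of the 7 genes on the 25 arrays, by group (x axis). Each point is 1 array, coloured by slide, open where the probe was not well above background, and the black line is the group mean. Il1b ran from 4.70 on a naïve array to 16.57 on an acute CpG array, and the third-slide point of Il1r2 was the lowest in each of the 7 groups that have one.

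Across the 12 comparisons, 30 of the 83 tested results of the members were called. The counts include genes that passed the background filter only through the group where they were high, which favours a call. These were Il1a against naïve (1 of 3 naïve arrays above background) and Il1r2 between re-stimulated and acute LPS cells (0 of 3 acute arrays). Such calls are no sign of a response by themselves. Acute LPS changed 5 of 7 members, all upward, beside 30.8% of all probes tested. Acute CpG changed 2 of 7 (8.02% of all probes), acute Poly(I:C) 1 of 6 (7.56%) and acute Pam3CSK4 0 of 7 (0%). For acute Pam3CSK4 limma gave 2 of 7 an unadjusted p under 0.05, beside 3065 of the 21304 probes tested. On re-stimulation, LPS changed 6 of 7 members against acute LPS (38.3% of all probes) and CpG 1 of 7 (4.68%). Poly(I:C) changed 1 of 7 (7.07%) and Pam3CSK4 0 of 7 (0%). With Pam3CSK4, 1 of 7 had an unadjusted p under 0.05 in limma, beside 2828 of the 19869 probes tested. Against naïve BMDMs, re-stimulated cells differed in 5 of 7 members with LPS (8.68% of all probes), 3 with CpG (16.4%), 2 with Pam3CSK4 (7.58%) and 4 with Poly(I:C) (11.9%), and all of these were higher. Counted upward alone, the shares of all probes were 13.5%, 3.82%, 4.15% and 0% for acute LPS, CpG, Poly(I:C) and Pam3CSK4. They were 21.1%, 2.32%, 3.58% and 0% for the re-stimulated against the acute cells of LPS (5 members higher), CpG (0), Poly(I:C) (1) and Pam3CSK4 (0). Against naïve BMDMs they were 4.54% with LPS, 7.97% with CpG, 3.57% with Pam3CSK4 and 5.75% with Poly(I:C). The median change of the members was 2.20 for acute LPS, against -0.09 over all probes tested, and 1.98 for re-stimulated against acute LPS, against 0.06.

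Leaving out the third-slide arrays raised the counts of members and of all probes together. The acute comparisons then called 5 of 6 tested members with LPS (41.7% of all probes), 4 of 7 with CpG (24%), 3 of 6 with Poly(I:C) (29.8%) and 2 of 7 with Pam3CSK4 (15.2%). Between re-stimulated and acute cells the counts became 6 with LPS, whose arrays were not on that slide (38.3%), 2 with CpG (9.87%), 6 with Poly(I:C) (31.3%) and 0 with Pam3CSK4 (0%). Against naïve BMDMs re-stimulated cells differed in 6 members with LPS (29.8%), 5 with CpG (30%), 5 with Pam3CSK4 (28.3%) and 7 with Poly(I:C) (33.8%). Without that slide Il1a and Il1r2 passed the background filter against naïve only through the stimulated cells. Between re-stimulated and acute Poly(I:C) cells Il1a passed only through the former. Il1rap in re-stimulated Poly(I:C) cells passed only through the naïve or acute cells, where it was higher. Such calls are no sign of a response by themselves.

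**Figure D2:**
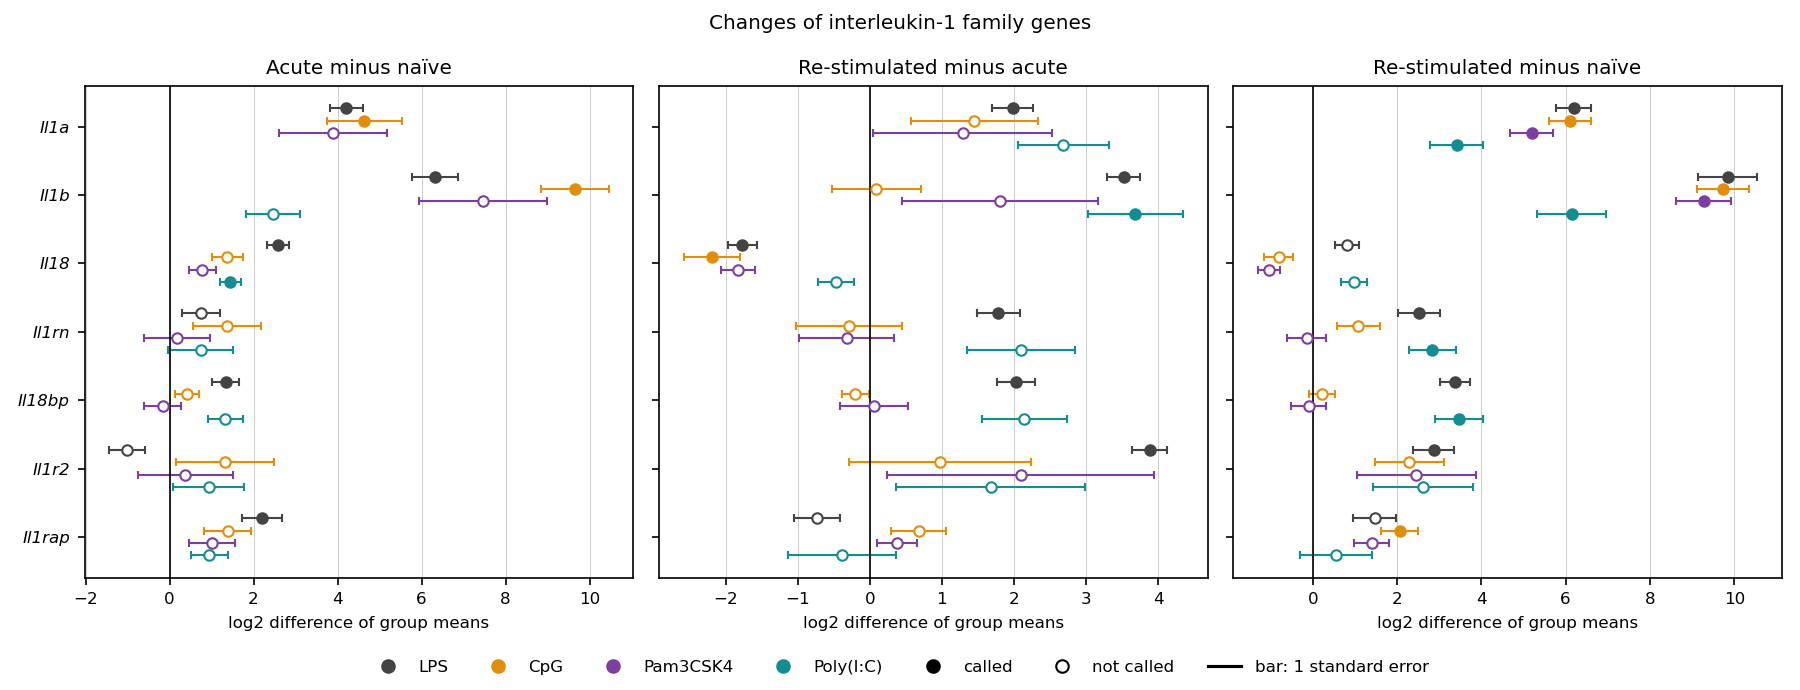
Log2 difference of group means (x axis) for each gene (y axis) and ligand (colour), as acute minus naïve, re-stimulated minus acute and re-stimulated minus naïve. Filled points were called by limma, open points were not, and bars are 1 standard error. Il1a and Il1b were called for all 4 ligands in the comparison of re-stimulated with naïve BMDMs.

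Both interleukin-1 ligand genes were called higher than naïve in all 4 re-stimulated groups, Il1a having passed the background filter only through the stimulated cells. Il1b lay at 4.70, 6.71 and 6.64 on the naïve arrays, at 12.34, 12.27 and 12.39 after acute LPS and at 15.57 and 16.13 after re-stimulation with LPS. None of the 3 groups overlapped. It rose by 6.31 ± 0.55 (SE) log2 units on acute LPS (adjusted p = 0.00099), and was higher again by 3.52 ± 0.23 on re-stimulation (adjusted p = 0.000385), an 11.5-fold difference between re-stimulated and acute cells that rests on arrays of different slides and scan days. The rise on acute LPS was 5.25 with normexp background correction, which changes low values the most, and the other called differences of Il1b from naïve were then 8.53 (acute CpG) and, in re-stimulated cells, 8.73 (LPS), 5.06 (Poly(I:C)), 8.62 (CpG) and 8.16 (Pam3CSK4). Without any 1 array the difference between re-stimulated and acute LPS cells stayed between 3.24 and 3.80, with adjusted p up to 0.00452.

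Acute CpG brought Il1b to 16.14, 16.57 and 14.28, a rise of 9.65 ± 0.80 (adjusted p = 0.00645), and re-stimulated cells were at 15.18, 16.28 and 15.79. The 2 CpG groups overlapped, and differed by 0.09 ± 0.62 (adjusted p = 0.95), lower on 2 slides and higher on 1. Acute Pam3CSK4 gave 15.85 and 11.11, a difference of 7.46 ± 1.53 from naïve that did not pass (adjusted p = 0.239). Both of its arrays were above all naïve arrays, by 11.15 and 4.47 on their own slides. Re-stimulated Pam3CSK4 cells, at 16.14, 14.84 and 14.89, were called against naïve (9.27 ± 0.65, adjusted p = 0.00666) but not against acute (1.81 ± 1.36, adjusted p = 0.585). The direction of the latter rests on the third slide, without which re-stimulated cells were lower (-0.36 ± 0.64, adjusted p = 0.783).

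Acute and re-stimulated Poly(I:C) cells had the lowest means of Il1b among the stimulated groups. The acute arrays read 7.86, 8.42 and 9.15, above all naïve arrays by 2.46 ± 0.64 (adjusted p = 0.0765, and 0.0432 with the replicate as a block). Re-stimulated cells read 11.05, 11.91 and 13.50, a rise of 3.68 ± 0.66 over acute (adjusted p = 0.0352) that was seen on each slide, from 3.19 to 4.36. This call was lost without either the first or the second array of the acute or of the re-stimulated group (adjusted p 0.0809 to 0.124), and with no detection filter (0.0608), although without any 1 array the value stayed between 3.01 and 4.23. Against naïve BMDMs the re-stimulated cells were higher by 6.14 ± 0.81 (adjusted p = 0.0128, and 0.0565 without the second re-stimulated array).

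Il1a was at 3.64, 4.23 and 4.98 on the naïve arrays, above background on the third alone, at 8.06, 8.51 and 8.90 after acute LPS and at 10.44 and 10.51 after re-stimulation with LPS. It rose by 4.21 ± 0.39 on acute LPS (adjusted p = 0.00122) and by a further 1.98 ± 0.28 on re-stimulation (adjusted p = 0.00342). Since 2 of 3 naïve arrays were not above background, differences from naïve depend on the background correction, and with normexp the acute LPS value was 2.29 (adjusted p = 0.000336). In 1 fit over all groups the difference between re-stimulated and acute LPS cells was still 1.98 but lost its call, with adjusted p of 0.129, or 0.151 with the slide as a random block. After acute CpG it read 10.06, 9.80 and 6.91, a rise of 4.64 ± 0.89 (adjusted p = 0.0349) that was lost with the replicate as a block (adjusted p = 0.0776) and without either the first or the second array of the naïve or of the CpG group (0.105 to 0.126). It was also lost with no detection filter (0.0597) and with signals scaled to the 75th percentile (0.0502), and was 2.79 with normexp.

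The third-slide arrays were the low ones for Il1a and Il1b after acute CpG and acute Pam3CSK4, where Il1a read 10.27 and 6.08. They were the high ones after Poly(I:C), where acute cells read 4.54, 4.70 and 5.79 and re-stimulated cells 6.86, 7.22 and 9.0. With 1 of 3 arrays above background in naïve and in acute Poly(I:C) cells, Il1a was not tested between them. Re-stimulated Poly(I:C) cells exceeded acute ones by 2.68 ± 0.63 (adjusted p = 0.0562, and 0.0305 with the replicate as a block), by 2.32 to 3.20 on the 3 slides. In that comparison Il1a passed the background filter only through the re-stimulated cells. Re-stimulated CpG cells, at 9.77, 10.08 and 11.27, and re-stimulated Pam3CSK4 cells, at 10.17, 8.55 and 9.69, overlapped the acute ones and were not called against them (adjusted p = 0.36 and 0.68). For Pam3CSK4 the difference was 1.29 ± 1.24 over all arrays and -0.91 ± 0.77 without the third slide.

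All 4 re-stimulated groups had more Il1a than naïve BMDMs, by 6.19 (LPS), 6.10 (CpG), 5.19 (Pam3CSK4) and 3.41 (Poly(I:C)), with adjusted p between 0.00353 and 0.0274. With normexp these became 4.09, 4.06, 3.21 and 1.74, each still called. The Pam3CSK4 call was lost without the first or the second naïve array or the first re-stimulated array (0.0503 to 0.0578), and the Poly(I:C) call without the first or the second array of either group (up to 0.0907) and with signals scaled to the 75th percentile (0.0603). For LPS the calls of Il1a and Il1b were both lost when either of the 2 re-stimulated arrays was left out (0.0918 to 0.136), which leaves 1 array whose spread is assumed to be that of the naïve group. CpG alone kept both calls without any 1 array.

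Without the third-slide arrays, Il1a and Il1b were also called for acute Pam3CSK4, at 6.34 ± 0.32 (adjusted p = 0.00913) and 10.15 ± 0.90 (adjusted p = 0.0147), with 1 array left in the Pam3CSK4 group and its spread assumed to be that of the naïve group. For re-stimulated against acute Poly(I:C) they were then called at 2.42 ± 0.19 (adjusted p = 0.00583) and 3.34 ± 0.37 (adjusted p = 0.00899). The Il1a call is no sign of a response by itself, since Il1a passed the background filter only through the re-stimulated cells.

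Il18 fell on re-stimulation with LPS and CpG. It was present in naïve BMDMs, at 8.50, 9.02 and 8.17, and read 11.28, 10.91 and 11.23 after acute LPS, a rise of 2.58 ± 0.26 (adjusted p = 0.00162). Acute Poly(I:C) raised it by 1.45 ± 0.26 (adjusted p = 0.0322), to 9.81, 10.23 and 10.02, with no overlap with the naïve arrays. That call was lost without the first naïve array or without any 1 Poly(I:C) array (0.0507 to 0.141), and with median scaling (0.109) or no detection filter (0.0662). Acute CpG, at 9.31, 10.01 and 10.50, and acute Pam3CSK4, at 9.52 and 9.18, lay above the 3 naïve arrays too, by 1.37 ± 0.37 (adjusted p = 0.0796) and 0.78 ± 0.32 (adjusted p = 0.363).

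On re-stimulation with LPS, Il18 read 9.34 and 9.40 and fell by 1.77 ± 0.20 against acute LPS (adjusted p = 0.00176). Re-stimulated CpG cells read 7.23, 7.73 and 8.30, a fall of 2.19 ± 0.39 against acute CpG (adjusted p = 0.0386). Within a slide the CpG difference was -2.28 to -2.08 on all 3. It nevertheless lost its call when any 1 array other than the third acute one was left out (0.0579 to 0.125) and with no detection filter (0.0713), while its value stayed between -2.50 and -1.91. Re-stimulated Pam3CSK4 cells, at 7.39, 7.43 and 7.74, were below both acute arrays (-1.83 ± 0.24, adjusted p = 0.132), by -2.13 and -1.44 on the 2 slides with both groups.

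Re-stimulation with Poly(I:C) left Il18 closest to its acute level. It read 9.69, 9.85 and 9.10, lower than acute on each slide by -0.92 to -0.12, and the difference of -0.47 ± 0.25 did not pass (adjusted p = 0.266). Against naïve BMDMs no re-stimulated group was called for Il18 by limma, and 3 of 4 had an unadjusted p under 0.05. With LPS, CpG, Pam3CSK4 and Poly(I:C) in turn the values were 0.81 ± 0.29, -0.81 ± 0.35, -1.04 ± 0.26 and 0.98 ± 0.31 (adjusted p = 0.152, 0.16, 0.0659 and 0.0927). With the replicate as a block the Poly(I:C) value passed (adjusted p = 0.048). Without the third-slide arrays CpG (-1.28), Pam3CSK4 (-1.35) and Poly(I:C) (1.01) all passed, with adjusted p from 0.0164 to 0.0273.

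**Figure D3:**
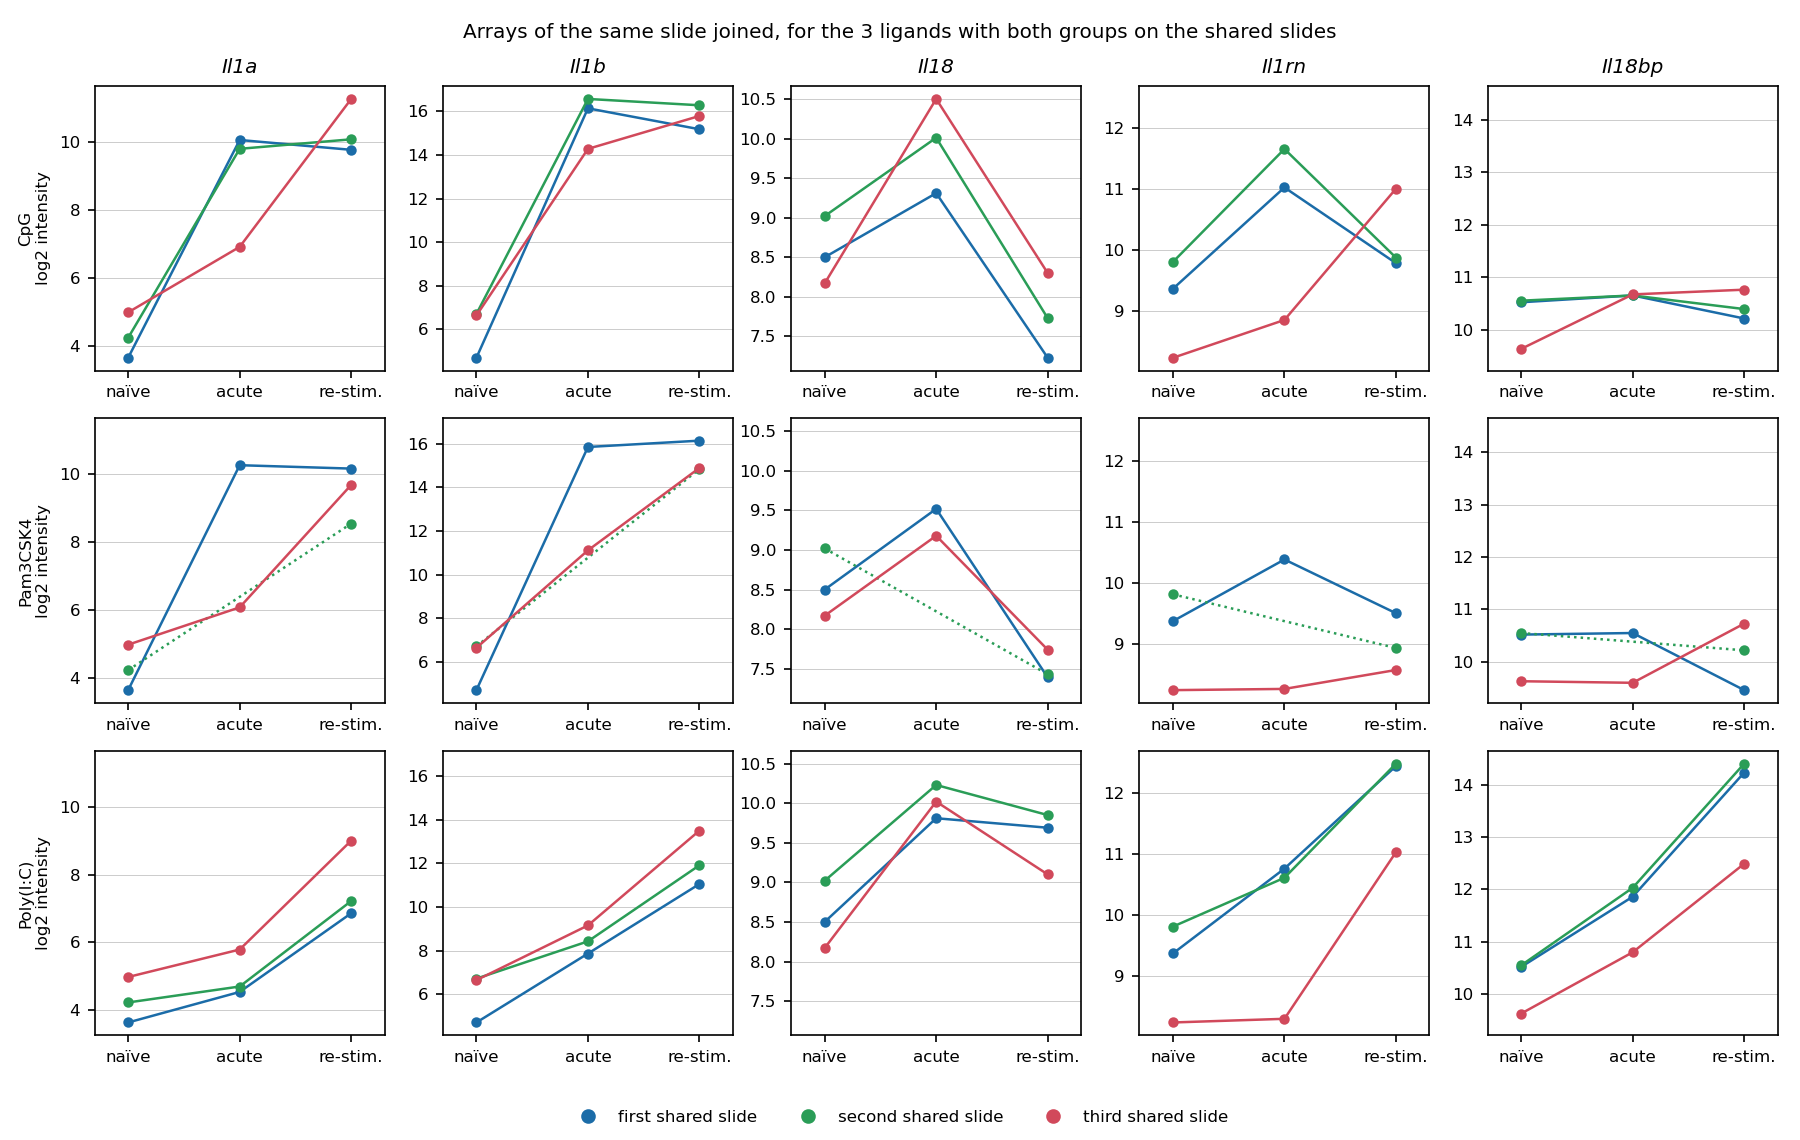
Log2 intensity (y axis) of Il1a, Il1b, Il18, Il1rn and Il18bp (columns) in naïve, acute and re-stimulated BMDMs (x axis) for CpG, Pam3CSK4 and Poly(I:C) (rows). Lines join arrays of 1 slide, dotted for the second slide of Pam3CSK4, which has no acute array. Il18 was lower in re-stimulated than in acute cells on each of the 8 joined slides, by -2.28 to -0.12, and Il1b was higher on each slide for Poly(I:C).

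Among the inhibitors, Il1rn was called for LPS and Poly(I:C) and not for CpG or Pam3CSK4. The receptor antagonist gene was already expressed in naïve BMDMs, at 9.37, 9.81 and 8.24. It read 10.35, 9.86 and 9.44 after acute LPS, which overlapped the naïve arrays (0.74 ± 0.45, adjusted p = 0.253), and 11.76 and 11.56 after re-stimulation with LPS. The re-stimulated arrays were higher than acute by 1.78 ± 0.30 (adjusted p = 0.00606) and than naïve by 2.52 ± 0.50 (adjusted p = 0.0493). The first of these calls was lost in 1 fit over all groups (adjusted p = 0.097, and 0.11 with the slide as a random block). The second was lost without the first or the second naïve array or either LPS array (up to 0.258), with no detection filter (0.0922) and with all 27 arrays (0.0863).

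After Poly(I:C), Il1rn read 10.76, 10.61 and 8.30 in acute cells and 12.44, 12.48 and 11.03 in re-stimulated ones. The groups did not overlap and the difference was 1.68 to 2.74 on the 3 slides, 2.10 ± 0.75 in all (adjusted p = 0.134, and 0.0351 with the replicate as a block). Against naïve BMDMs the re-stimulated cells were higher by 2.84 ± 0.56 (adjusted p = 0.031), by 2.66 to 3.06 within slides, a call that was lost without the first or the second array of either group (up to 0.113) and with no detection filter (0.0511). Acute CpG read 11.03, 11.66 and 8.86 and re-stimulated CpG 9.79, 9.88 and 11.01, a difference of -0.29 ± 0.74 (adjusted p = 0.844) that ran from -1.79 to 2.15 between slides. Pam3CSK4 read 10.38 and 8.26 in acute cells and 9.50, 8.93 and 8.57 in re-stimulated cells, within the range of the naïve arrays but for the first acute one.

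The array of the third slide gave the lowest Il1rn in 6 of the 7 groups, the exception being re-stimulated CpG. Without that slide the CpG groups differed by -1.51 ± 0.27 (adjusted p = 0.0347), re-stimulated cells being lower, and the acute CpG rise of 1.75 ± 0.29 (adjusted p = 0.0183) and the acute Poly(I:C) rise of 1.09 ± 0.20 (adjusted p = 0.0218) passed too. Of the granulocyte markers, Ly6g was low on the same slide, at 1.82 on the acute and 3.81 on the re-stimulated CpG array against 8.74 to 10.23 on the other CpG arrays. The markers did not move together between the CpG groups. On the first and the second slide Ly6g read 8.94 and 9.47 in acute and 8.74 and 10.23 in re-stimulated cells, Mpo 10.96 and 11.39 against 8.45 and 6.08, Prtn3 6.95 and 7.18 against 5.21 and 4.28, and Elane 11.82 and 11.46 against 11.57 and 11.52. The part of granulocytes in the Il1rn values was not tested.

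Il18bp differed between the ligands. It was at 10.52, 10.55 and 9.63 in naïve BMDMs, at 11.60, 11.20 and 11.91 after acute LPS (1.34 ± 0.32, adjusted p = 0.025) and at 13.48 and 13.72 after re-stimulation with LPS (2.03 ± 0.26 above acute, adjusted p = 0.00255). Poly(I:C) gave 11.86, 12.03 and 10.80 in acute and 14.23, 14.40 and 12.49 in re-stimulated cells. CpG gave 10.65, 10.65 and 10.67 in acute and 10.21, 10.39 and 10.76 in re-stimulated cells, and Pam3CSK4 10.55 and 9.60, then 9.46, 10.22 and 10.73. All 11 arrays of CpG and Pam3CSK4 thus lay between 9.46 and 10.76, and all 5 re-stimulated arrays of LPS and Poly(I:C) at 12.49 or above. Ly6g, on the first and the second slide, was at 11.67 to 12.78 in the same re-stimulated LPS and Poly(I:C) cells and at 8.74 to 10.23 in re-stimulated CpG and Pam3CSK4 cells, and the lowest of the 5 Il18bp values, 12.49, was on the array with Ly6g at 6.42. Mpo was at 3.22 to 9.90 in the former and 5.65 to 8.45 in the latter. Prtn3 was at 4.06 to 5.37 and 4.28 to 5.32, and Elane at 11.67 to 12.73 and 11.38 to 12.18. The part of granulocytes in the Il18bp values was not tested.

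The acute LPS call of Il18bp was lost without the first or the third LPS array (up to 0.079) and with median scaling (adjusted p = 0.0986). With all 27 arrays, 1 of them of low quality in the re-stimulated LPS group, the difference between re-stimulated and acute LPS cells was 1.40 and lost its call (adjusted p = 0.178). The acute Poly(I:C) difference of 1.33 ± 0.42 (adjusted p = 0.123) passed with the replicate as a block (0.0286), and was 1.16 to 1.48 on the 3 slides. Likewise the difference of re-stimulated from acute Poly(I:C), 2.14 ± 0.59 (adjusted p = 0.0791), passed with the block (0.0315) and was 1.69 to 2.38 within slides. Against naïve BMDMs, re-stimulated cells were higher by 3.37 ± 0.35 for LPS (adjusted p = 0.016) and by 3.47 ± 0.57 for Poly(I:C) (adjusted p = 0.0202). The LPS call was lost without the first naïve array or either LPS array (up to 0.176) and with all 27 arrays (2.69, adjusted p = 0.115), and the Poly(I:C) call without the first or the second array of either group (up to 0.0824). For CpG and Pam3CSK4 the values of re-stimulated against naïve cells were 0.22 ± 0.31 and -0.10 ± 0.41, neither of them called (adjusted p = 0.646 and 0.9).

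Il1r2, the decoy receptor gene, was the member most divided by slide. It was above background on 14 of 15 arrays of the first and the second shared slide, at 3.22 to 8.03, on 1 of 7 arrays of the third, at 2.08 to 4.03, and on 0 of 3 acute LPS arrays, at 2.09 to 2.66. The third-slide array was lower than the mean of the others in 7 of 7 groups, by a median of 3.52 log2 units. Re-stimulated LPS cells, at 6.31 and 6.37, were called against acute LPS (adjusted p = 0.000338). No acute array was above background, so lower acute values were raised to the lowest one marked above background on their array. On the deposited scale the difference was then 13.9-fold. This is not a minimum, since Il1r2 values not above background reached 4.03. Near background the size depends on the processing, and with normexp the log2 difference was 1.16 (adjusted p = 0.00103). The call was lost in 1 fit over all groups (adjusted p = 0.0614) and with all 27 arrays (2.77, adjusted p = 0.13). They were also called against naïve cells, which read 3.22, 4.37 and 2.83, by 2.87 ± 0.49 (adjusted p = 0.0375), a call lost without the first naïve or either LPS array (up to 0.244), in 1 fit over all groups (0.21, and 0.163 with the slide as a random block), with no detection filter (0.0704) and with all 27 arrays (0.462), and 0.92 in size with normexp.

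No other main comparison called Il1r2. Re-stimulated CpG cells read 6.25, 6.99 and 4.03, re-stimulated Pam3CSK4 cells 7.12, 8.03 and 2.64 and re-stimulated Poly(I:C) cells 7.68, 7.17 and 3.39, so that on the first and the second slide all 6 values were above the naïve ones. Without the third slide the 3 ligands passed against naïve BMDMs, by 2.82 ± 0.45, 3.78 ± 0.49 and 3.63 ± 0.43 (adjusted p = 0.0109, 0.00965 and 0.00492). Il1r2 entered those tests only through the re-stimulated groups, where it was high, since the first naïve array was not above background. Re-stimulated Poly(I:C) cells then passed against acute ones by 2.16 ± 0.41 (adjusted p = 0.0238). Of the granulocyte markers, Ly6g differed in the same direction, and read 11.67 and 12.77 in re-stimulated LPS cells against 2.98, 2.96 and 3.78 in acute ones, and 12.29, 12.78 and 6.42 in re-stimulated Poly(I:C) cells against 10.08, 10.62 and 2.67 in acute ones. In naïve cells Ly6g read 8.91, 9.60 and 2.54. Mpo did not follow, at 6.44 and 3.22 in re-stimulated LPS cells against 4.80, 3.92 and 6.20 in acute and 9.82, 10.60 and 2.14 in naïve ones. Prtn3 was at 4.6 and 4.06 in re-stimulated LPS cells, 3.34, 2.81 and 3.58 in acute and 5.73, 6.25 and 2.92 in naïve ones. Elane was at 11.67 and 12.73 in re-stimulated LPS cells, 11.48, 12.01 and 12.10 in acute and 12.29, 12.23 and 11.83 in naïve ones. From acute to re-stimulated Poly(I:C), on the first and the second slide, Mpo went from 10.33 and 11.47 to 9.86 and 9.90. Prtn3 went from 6.24 and 6.99 to 5.37 and 5.32, and Elane from 11.71 and 11.95 to 11.77 and 12.15. The part of granulocytes in the Il1r2 values was not tested.

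**Figure D4:**
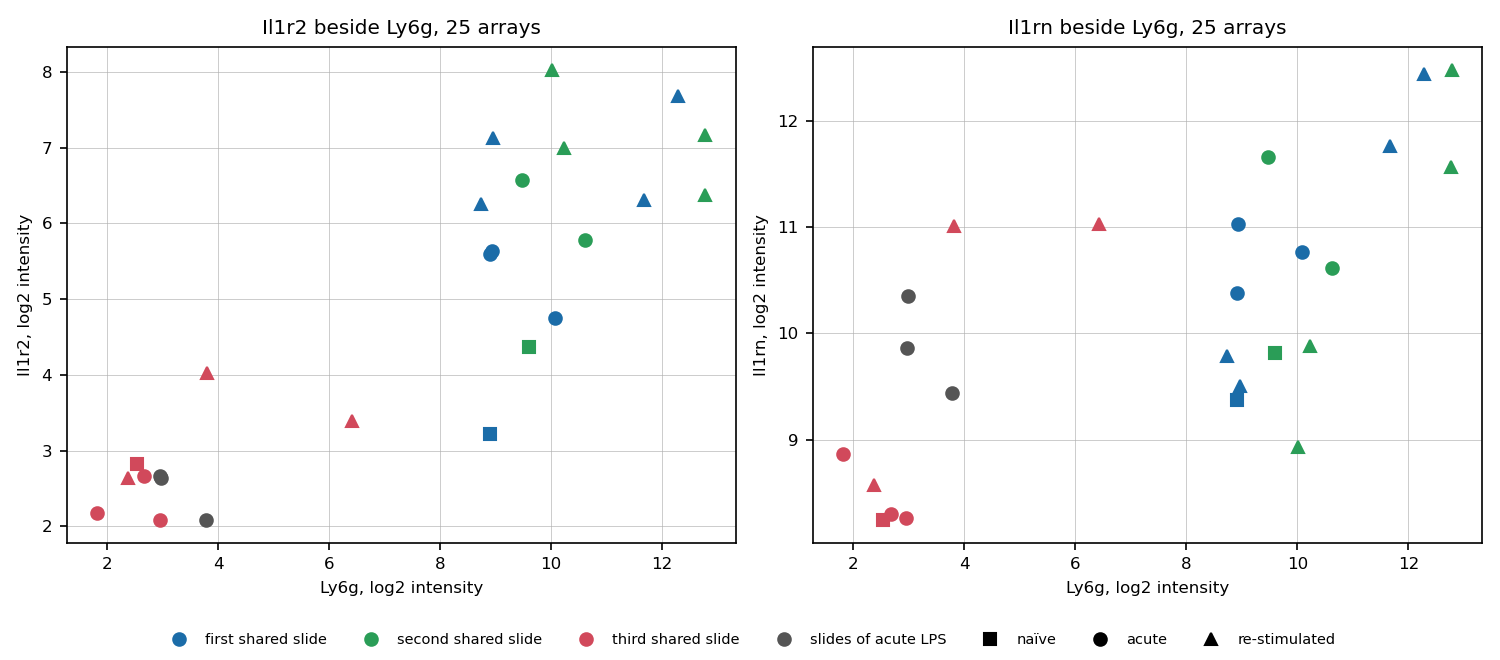
Log2 intensity of Il1r2 (left) and Il1rn (right) on the y axis against that of Ly6g on the x axis, 1 point per array, coloured by slide, with squares for naïve, circles for acute and triangles for re-stimulated cells. The 7 arrays of the third slide and the 3 of acute LPS lie at Ly6g levels of 1.82 to 6.42, with Il1r2 at or under 4.03.

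Il1rap was called in 2 comparisons by the probe with the highest mean. That probe, for transcript NM_134103 (mm9 chr16:26701498-26701557), read 4.34, 4.64 and 3.07 in naïve BMDMs and 6.77, 6.10 and 5.79 after acute LPS, a rise of 2.20 ± 0.47 (adjusted p = 0.0168) that was lost without the first or the second LPS array (up to 0.0586). Re-stimulated CpG cells, at 6.00, 5.89 and 6.34, were higher than naïve by 2.06 ± 0.43 (adjusted p = 0.0281), a call lost without the first naïve array or any 1 CpG array (up to 0.0899). The probe for ENSMUST00000096129 (chr16:26725291-26725350) differed by 0.15 after acute LPS and by -0.45 between re-stimulated CpG and naïve cells, and neither was called. The probe for NM_008364 (chr16:26716515-26716574) was above background on 2 acute LPS arrays only. With the mean of the 3 probes both calls were lost, at 1.09 (adjusted p = 0.104) and 0.65 (adjusted p = 0.299), so they hold for 1 of the 3 probes. The probes are annotated to different transcripts, which that mean mixes. The form of the receptor subunit that NM_134103 encodes was not determined. With normexp the values of the main probe were 0.73 and 0.68, both still called.

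After re-stimulation with Poly(I:C) the main Il1rap probe read 3.51, 3.80 and 6.39, below background on the first 2 of these arrays. Its difference from naïve was 0.55 ± 0.86 (adjusted p = 0.712) over the 3 slides and -0.84 ± 0.19 (adjusted p = 0.0311) without the third, so its direction depends on that slide.

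**Figure D5:**
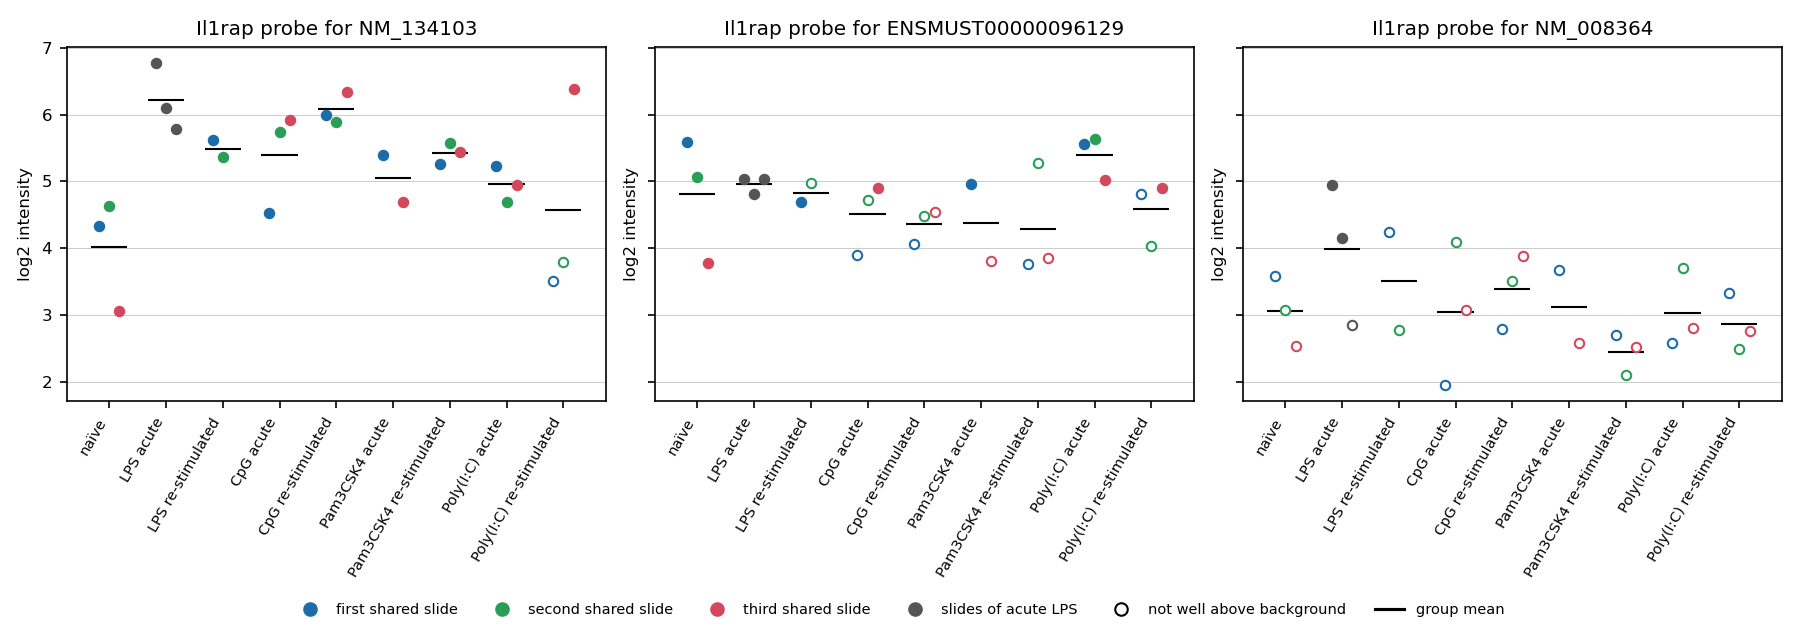
Log2 intensity (y axis) of the 3 Il1rap probes by group (x axis), each panel 1 probe, with points as in the plot of all members. The NM_134103 probe lay at 3.07 to 4.64 on the naïve arrays and at 5.79 to 6.77 after acute LPS, a difference that was called, and the other probes were not called there.

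The ligands were compared with each other at their given doses and equal times in 1 fit of all 9 groups, over 9 pairs of levels and 6 pairs of changes on re-stimulation. The doses are in different units and are not matched. Of 63 level results 13 were called. Acute CpG exceeded acute Poly(I:C) by 7.19 ± 0.91 for Il1b (adjusted p = 0.000147) and 3.91 ± 0.90 for Il1a (adjusted p = 0.0145), 2 of 7 members beside 5.46% of all probes. Acute Pam3CSK4 exceeded acute Poly(I:C) in Il1b by 5.0 ± 1.01 (adjusted p = 0.00341), 1 of 7 beside 8.82%. CpG and Pam3CSK4 were not told apart in any member, acute or re-stimulated (0.0504% and 0.126% of all probes called). At an unadjusted p under 0.05 in limma were 1 member in acute cells (1094 of 19841 probes) and 0 in re-stimulated cells (653 of 19780). For acute Il1b CpG and Pam3CSK4 differed by 2.18 ± 1.01.

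Among re-stimulated cells, LPS and Poly(I:C) stood apart from CpG and Pam3CSK4 in Il18bp. It was higher with LPS than with CpG by 3.15 ± 0.50 (adjusted p = 0.0273, 1 of 7 members beside 0.116% of all probes) and than with Pam3CSK4 by 3.46 ± 0.50 (adjusted p = 0.0024, beside 1.98%). CpG and Pam3CSK4 were lower than Poly(I:C) by 3.25 ± 0.45 (adjusted p = 0.000425, beside 9.36%) and 3.57 ± 0.45 (adjusted p = 3.84e-05, beside 13.3%). Il18 was also lower with CpG than with Poly(I:C), by -1.80 ± 0.30 (adjusted p = 0.0014), lower with Pam3CSK4 than with Poly(I:C), by -2.03 ± 0.30 (adjusted p = 0.000165), and higher with LPS than with Pam3CSK4, by 1.85 ± 0.33 (adjusted p = 0.00843). Il1rn was lower with Pam3CSK4 than with Poly(I:C) by -2.98 ± 0.74 (adjusted p = 0.0107).

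Il1b, in contrast, was higher with CpG and Pam3CSK4 than with Poly(I:C). With CpG it was 3.59 ± 0.91 higher than with Poly(I:C) (adjusted p = 0.0167) and with Pam3CSK4 3.13 ± 0.91 higher (adjusted p = 0.0262). Re-stimulated LPS and Poly(I:C) cells were not told apart in any member (1.89% of all probes called), and differed in Il1b by 3.70 ± 1.01 (adjusted p = 0.0723). Between them 2 of 7 members had an unadjusted p under 0.05 in limma, beside 2746 of 20087 probes. Each of these groups holds 2 or 3 arrays, and 8 of the 13 level calls were lost in at least 1 fit with an array left out, at adjusted p from 0.0506 to 0.776. With all 27 arrays 5 of the level results were called, and in fits of the pair's own groups 10. Kept without any 1 array were the other 5, which were Il1b between acute CpG and Poly(I:C), Il18bp and Il18 between re-stimulated Pam3CSK4 and Poly(I:C), and those between re-stimulated CpG and Poly(I:C).

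For the change on re-stimulation, 1 of 42 results was called. Il18bp rose by 2.23 ± 0.67 log2 units more with LPS than with CpG (adjusted p = 0.0454, beside 9.11% of all probes). This contrast contains the acute LPS arrays and hence their slides and scan days. Between the same ligands the change of Il1b differed by 3.43 ± 1.36 (adjusted p = 0.115). In the other 5 pairs limma called 0 members. The shares of all probes called were 10.5% for LPS and Pam3CSK4, 4.87% for LPS and Poly(I:C) and 0.0423% for CpG and Poly(I:C). They were 0.146% for Pam3CSK4 and Poly(I:C) and 0% for CpG and Pam3CSK4. At an unadjusted p under 0.05 in limma were 1 member for LPS and Pam3CSK4 (5801 of all 21849 probes) and 1 for LPS and Poly(I:C) (4774 of 22195). There were 4 for CpG and Poly(I:C) (2596 of 21268), 3 for Pam3CSK4 and Poly(I:C) (2887 of 21232) and 0 for CpG and Pam3CSK4 (161 of 20502). CpG and Poly(I:C), on shared slides, differed in the change of Il18 by -1.72 ± 0.42 (adjusted p = 0.147) and of Il18bp by -2.35 ± 0.64 (adjusted p = 0.176), and in Il1b by -3.59 ± 1.28 (adjusted p = 0.269). Without the third slide 22 of the change results (beside 0.169% to 26.8% of all probes, by pair) and 27 of the level results (0.305% to 30.5%) were called.

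Other members of the pathway came from lists of 14 further ligands and receptors, of which 4 to 7 passed the background filter in a comparison, and of 12 genes of processing and signalling, all of which passed. Among the ligands and receptors, 1 of 6 tested rose after acute LPS (13.5% of all probes were called higher), 1 of 5 after acute CpG (3.82%) and 1 of 6 after acute Poly(I:C) (4.15%), and 0 of 4 were called after acute Pam3CSK4 (0%). Such counts are no sign of a response of the list, since a gene that passes the background filter only through the group where it is high had to differ. The gene that rose after LPS was Il33, an alarmin of the family, at 6.49 to 10.00 on the 3 acute arrays and below background in naïve cells, 70.8-fold higher (adjusted p = 0.00396). On re-stimulation with LPS it was below background again, 74.9-fold lower than in acute cells (adjusted p = 0.00447). These folds, like those of Il36a and Il1r1 below, are on the deposited scale, with values below background raised as for Il1r2. They are not minima, and their size depends on the processing near background. With CpG and Poly(I:C) the gene was Il36g, a ligand of the interleukin-36 receptor, at 3.94 ± 0.44 (adjusted p = 0.012) and 2.20 ± 0.37 (adjusted p = 0.0267).

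In all 4 re-stimulated groups 2 of 5 genes of that list were higher than in naïve BMDMs (4.54%, 7.97%, 3.57% and 5.75% of all probes were higher with LPS, CpG, Pam3CSK4 and Poly(I:C)), and they were the interleukin-36 ligands Il36a, which passed the filter through the re-stimulated groups alone, and Il36g. Il36a was below background on the naïve arrays. On the deposited scale it was 127-fold higher after LPS, 38.7-fold with CpG, 18.4-fold with Pam3CSK4 and 28.5-fold with Poly(I:C) (adjusted p from 0.000349 to 0.00478). Il36g was higher by 5.34, 4.53, 5.24 and 2.90 log2 units (adjusted p from 0.00372 to 0.0144). Re-stimulated against acute LPS, 4 of 7 were higher and 2 lower, beside 38.3% of all probes called and 21.1% higher, and 4 of these 6 passed the filter through 1 group alone (Il36a and Il1r1 re-stimulated, Il33 and Il18rap acute). Il1r1, the signalling receptor, was at 7.69 and 9.01 in re-stimulated and below background in acute LPS cells, 28.1-fold higher (adjusted p = 0.0028), beside the granulocyte and slide differences given above. Sigirr, a negative regulator of these receptors, was 1.31 ± 0.22 higher (adjusted p = 0.00635).

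Of the processing and signalling genes, 4 of 12 were higher and 1 lower after acute LPS, a share near that of all probes called there (30.8%). After acute CpG 3 were higher (3.82% of all probes), after acute Poly(I:C) 4 (4.15%), and after acute Pam3CSK4 0 were called (0%). Nlrp3, the sensor of an inflammasome, read 5.27 to 5.68 on the naïve arrays and rose by 3.37 ± 0.31 with LPS, 4.87 ± 0.21 with CpG and 2.71 ± 0.23 with Poly(I:C) (adjusted p = 0.0012, 0.0011 and 0.00448). It stayed higher than naïve in all 4 re-stimulated groups, by 2.69 to 3.67, and was lower in re-stimulated than in acute CpG cells by -1.21 ± 0.20 (adjusted p = 0.0355). Casp1, which cuts both precursors, rose with acute LPS (1.14 ± 0.17, adjusted p = 0.00505) and acute Poly(I:C) (1.29 ± 0.16, adjusted p = 0.013). Casp4, a caspase of the non-canonical inflammasome, rose with LPS, CpG and Poly(I:C) by 2.75, 2.58 and 2.94.

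Re-stimulated against acute LPS, 2 of the 12 were higher and 3 lower, again near the share of all probes called (38.3%). Irak3 and Tollip, both inhibitors of signalling, were higher by 0.90 ± 0.20 (adjusted p = 0.0165) and 0.86 ± 0.24 (adjusted p = 0.0353), and the adaptor Myd88 lower by -1.25 ± 0.22 (adjusted p = 0.00762), Casp4 by -0.95 ± 0.22 (adjusted p = 0.0199) and Pycard by -0.67 ± 0.21 (adjusted p = 0.0459). The median of the list was -0.14 there, against 0.06 over all probes.

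The genes whose pattern was most like that of each member over the 25 arrays were named by Pearson's r among 17428 genes. These arrays share groups and slides, so r is given as a description. Il1a and Il1b were closest to each other (r = 0.951). Next for Il1b was the chemokine gene Cxcl3 (0.935), and for Il1a the integrin gene Itga5 (0.897). Il18 was most like Il15 (0.925), another cytokine gene, Il1rn like the class I histocompatibility genes H2-K1 (0.876) and H2-Q8 (0.875), Il18bp like 5133401N09Rik (0.953), Il1r2 like the chemokine receptor gene Ccr7 (0.937) and Il1rap like the gap junction gene Gja1 (0.824).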

How the data were processed

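The authors deposited for each one-colour array the scanner's spot intensity values, not normalized, and a table of log2 values (RMA background correction, then quantile normalization). The main values are those log2 values, and the alternatives were remade from the intensities. The members and the gene and marker lists were chosen with earlier results of these data known. Linear models (limma 3.58.1, R 4.3.3) were fitted to the arrays of the 2 groups compared, with Benjamini-Hochberg adjustment over the named probes tested, and every adjusted p is from limma. Pairs of ligands were contrasts in 1 fit of all groups. A gene with several probes is given by the probe with the highest mean. Fits were tested on simulated data. Replicate numbers come from the labels. For CpG and Poly(I:C), acute and re-stimulated, and for acute Poly(I:C) and CpG with naïve, arrays of 1 number deviated together from the means of their groups, with correlations of 0.22 to 0.48 over 22944 probes in all 3 pairs, and of 0.17 to 0.30 for re-stimulated Pam3CSK4 or Poly(I:C) with naïve, so there the replicate block is given where it changes a call. With 2 pairs each, the correlations were 0.49 to 0.54 for acute Pam3CSK4 with naïve and 0.24 to 0.26 for re-stimulated with acute Pam3CSK4. For acute LPS with naïve they were 0.02 to 0.05. All members are named, and for likeness up to 3 genes of highest r each. Positions of probes are those of the array files (mm9). Medians of the deposited log2 columns were 4.00 to 4.08, and 42.1 to 74.6% of probes were well above background. The 74.6% was the third naïve array alone, and the next highest share was 54.3%. The 2 arrays left out by the authors were at 92.3% and 99.9%.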

Additional observations from a re-analysis of the deposited data

Results flagged for a closer look

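The change of Il18bp on re-stimulation differed between LPS and CpG by 2.23 ± 0.67 log2 units (limma contrast, adjusted p = 0.0454), and it alone passed of 42 such differences tested. With LPS all re-stimulated arrays (13.48 and 13.72) were above all acute ones (11.20 to 11.91), and with CpG the groups overlapped (10.21 to 10.76 and 10.65 to 10.67). Over 36 alternatives the value ran from 1.60 to 2.40 and kept its sign, but 17 of them lost the call, with adjusted p up to 0.896. The acute LPS arrays had slides and scan days of their own, which cannot be told apart from the ligand in this contrast.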

How the results depend on the processing

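Over all alternatives, the results of single members kept their direction and their side of the threshold in 1665 cases, lost a call in 140, gained one in 74 and reversed in 1. The reversal was Il1rap in re-stimulated Poly(I:C) against naïve BMDMs, 0.55 over all arrays and -0.84 without the third shared slide. The causes of the changes below were not tested, except that fewer arrays or more probes tested are part of an alternative's construction. The number of members called moved by over 1.5 times in the settings that follow, and smaller moves are given for LPS alone. Except for the third slide, the share of all probes called in a setting, or with 1 array left out, is not given here. These counts describe the settings and are no result about the members. With median scaling it became 2 for acute Pam3CSK4, 5 for re-stimulated CpG against naïve, 3 for re-stimulated against acute Poly(I:C) and 0 for the ligand pairs in the change on re-stimulation. With normexp background correction it became 2 for acute Poly(I:C). With no detection filter it became 1 for acute CpG, 0 for acute Poly(I:C), 0 for re-stimulated against acute CpG, 3 for re-stimulated LPS against naïve, 0 for re-stimulated against acute Poly(I:C) and 0 for the change pairs. With other groups in the fit (all groups for comparisons of 2, the groups concerned alone for ligand pairs) it became 2 for acute Pam3CSK4, 2 for acute Poly(I:C), 3 for re-stimulated against acute LPS (Il1a, Il1rn and Il1r2 were lost), 1 for Pam3CSK4 and 3 for Poly(I:C), and 2 for the change pairs. With the replicate block it became 1 for acute CpG, 3 for acute Poly(I:C) and 4 for re-stimulated against acute Poly(I:C), and the block changed no other call of the paired comparisons than those in the text. In comparisons whose numbers were not shown to pair the arrays, it lost Il18bp for acute LPS (adjusted p = 0.0722) and Il1rap for re-stimulated CpG against naïve (0.0639), and gained Il1r2 there (0.0466) and Il1rap for re-stimulated against acute LPS (0.0278), which made that count 7 and that of acute LPS 4. Smaller moves of re-stimulated LPS against naïve were to 4 in 1 fit of all groups, with or without the slide block, and to 6 without the third slide. Acute LPS moved to 4 with median scaling or with the mean of all probes and to 6 with signals scaled to the 75th percentile. With the slide as a random block it became 2 for acute Pam3CSK4, 2 for acute Poly(I:C), 1 for re-stimulated against acute Pam3CSK4, 4 for Poly(I:C) and 4 for LPS (Il1a and Il1rn were lost). With all 27 arrays it became 2 for re-stimulated LPS against naïve, 4 for re-stimulated against acute LPS (Il1r2 and Il18bp were lost), 0 for the change pairs and 5 for the level pairs. Without the third shared slide it became 4 for acute CpG, 2 for acute Pam3CSK4, 3 for acute Poly(I:C), 2 for re-stimulated against acute CpG, 6 for Poly(I:C), then 5 (CpG), 5 (Pam3CSK4) and 7 (Poly(I:C)) for re-stimulated against naïve, 22 for the change pairs and 27 for the level pairs.

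With 1 array left out at a time the counts ran from 1 to 2 for acute CpG, 3 to 5 for acute LPS, 0 to 0 for acute Pam3CSK4, 0 to 1 for acute Poly(I:C), 6 to 7 for re-stimulated against acute LPS, and in the same comparison 0 to 4 (Poly(I:C)), 0 to 1 (CpG) and 0 to 0 (Pam3CSK4). Against naïve BMDMs they ran in re-stimulated cells from 2 to 3 (CpG), 0 to 6 (LPS), 0 to 5 (Poly(I:C)) and 1 to 4 (Pam3CSK4), and for ligand pairs from 0 to 5 for changes and 10 to 21 for levels. Il1r2 in acute LPS cells and Il1a in naïve cells were at or near background, which limits their differences.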
